A study of Mus musculus with 24 samples.

Results

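The nuclear genes for complex III, complex IV and ATP synthase were compared between mouse oocytes cultured in 5% and in 20% oxygen. Members were taken by symbol from the expression table: names starting with Uqcr, Cyc1 itself, names starting with Cox followed by a number from 4 to 8 and a letter, and names starting with Atp5, with pseudogene names left out. This gave 41 of the 16572 gene names, of which 9 belonged to complex III, 15 to complex IV and 17 to ATP synthase. The rule picks genes by name, and a measured value, the highest mean, only chose the row where a name repeats, as for Atp5o. It was set with earlier results of these data known. A similar name does not place every product in the assembled complex: Cox7a2l encodes a factor that joins respiratory complexes.

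The oocytes came from dissociated ovaries of mice aged 7 days, labelled C57BL/6 Barb and described in the study's methods as a cross with SV129, and were grown without follicles, at first over theca-like cells of the same digest. The IV 5% O2 group was cultured for 9 days with 5% oxygen and the IV 20% O2 group for 14 days with 20% oxygen, and class IV is the largest size class, with a labelled diameter of 60 to 70 μm in both. The study's methods, however, give a smaller diameter range for the class IV oocytes grown at the higher oxygen level. The labels name no transgene and no drug for either group, and the groups are called by their oxygen level below. Total RNA depleted of ribosomal RNA was sequenced in 2 libraries per group, but the table holds 1 pooled value per gene and group, so that no difference below has an SD, a replicate check or a p-value. Oxygen, days in culture, oocyte size and library cannot be told apart in these columns.

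Complex III passes electrons from ubiquinol to cytochrome c, complex IV passes them on to oxygen, and ATP synthase uses the proton gradient that results to make ATP. Each complex has a few large catalytic subunits and many small ones that stabilise it or join it to its neighbours, and each is built from products of the nuclear and of the mitochondrial genome. Growing oocytes take up pyruvate from their surroundings and depend on this pathway for ATP.

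Subunits of ATP synthase are small enough for whole coding sequences to be shown. The genes Atp5k, Atp5mpl and Atp5e had some of the widest differences between the columns and almost no sequence that recurs in the genome. Their coding sequences in the GENCODE annotation of GRCm38 are given 5′ to 3′ with the start and stop codon in capitals. Atp5k lies on the minus strand at chr5:108433244-108434448, Atp5mpl on the minus strand at chr12:111961375-111966977 and Atp5e on the minus strand at chr2:174461072-174464105.
Atp5k: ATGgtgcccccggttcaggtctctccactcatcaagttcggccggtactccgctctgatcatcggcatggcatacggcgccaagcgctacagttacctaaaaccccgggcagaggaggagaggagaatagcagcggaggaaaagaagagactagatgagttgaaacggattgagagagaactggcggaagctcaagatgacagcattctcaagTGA
Atp5mpl: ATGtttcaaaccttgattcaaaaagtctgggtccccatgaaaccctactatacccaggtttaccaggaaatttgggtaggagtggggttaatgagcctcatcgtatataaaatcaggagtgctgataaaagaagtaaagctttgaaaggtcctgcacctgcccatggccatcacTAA
Atp5e: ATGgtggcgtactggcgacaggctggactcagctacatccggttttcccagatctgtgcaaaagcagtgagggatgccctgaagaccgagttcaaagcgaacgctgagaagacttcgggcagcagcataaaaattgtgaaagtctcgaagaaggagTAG

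The c subunit, which forms the rotating ring in the membrane, is encoded by Atp5g1, Atp5g2 and Atp5g3. The last 228 bases of their coding sequences are shown, because these genes make the same ring protein and their reads have to be told apart by sequence. Capitals mark the bases of Atp5g2 and Atp5g3 that differ from Atp5g1. Atp5g1 lies at chr11:96068852-96075670, Atp5g2 at chr15:102662864-102672352 and Atp5g3 at chr2:73908447-73911326, all on the minus strand.
Atp5g1: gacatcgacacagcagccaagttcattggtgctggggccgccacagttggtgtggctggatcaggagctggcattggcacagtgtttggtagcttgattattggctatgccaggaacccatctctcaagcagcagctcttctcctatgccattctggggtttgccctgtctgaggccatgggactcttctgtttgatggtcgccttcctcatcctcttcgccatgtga
Atp5g2: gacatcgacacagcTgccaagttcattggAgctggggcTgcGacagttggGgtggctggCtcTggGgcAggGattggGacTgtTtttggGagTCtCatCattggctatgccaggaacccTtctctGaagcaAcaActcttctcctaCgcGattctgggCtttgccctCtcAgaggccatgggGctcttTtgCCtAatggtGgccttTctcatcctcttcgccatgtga
Atp5g3: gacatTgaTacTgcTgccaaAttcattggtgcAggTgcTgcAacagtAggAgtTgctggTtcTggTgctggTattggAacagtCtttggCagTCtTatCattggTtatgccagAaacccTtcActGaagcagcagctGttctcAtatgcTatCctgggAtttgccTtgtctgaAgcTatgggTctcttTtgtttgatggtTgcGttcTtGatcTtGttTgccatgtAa
Atp5g2 differs from Atp5g1 at 34 of these bases and Atp5g3 at 46, and no codon codes for another amino acid in any pair. The longest run of identical bases between a pair is 21, between Atp5g1 and Atp5g2, so that a read of 100 bases within this stretch differs between the genes.

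Most subunit genes had lower values in the 5% O2 column than in the 20% O2 column. Levels are given in RPM, the reads of a gene scaled by the depth of its column, without a correction for gene length. Reads on genes were 109629353 of a depth of 132185259 at 5% O2 and 29754908 of 40875359 at 20% O2. The gene values therefore share no common total, and summed to 828571 RPM at 5% O2 and 726899 RPM at 20% O2. Scaling to the reads on genes, which was not run, would lower the 5% O2 values relative to those at 20% O2. Each difference is the log2(RPM + 1) at 5% O2 less that at 20% O2, a scale that compresses genes with few reads. Differences were computed for the 14704 genes whose 2 columns averaged 1 RPM or more. Of the 41 subunit genes 40 passed this limit, and 19 of them were at least 2-fold lower at 5% O2, against 9.22% of all genes tested. No subunit gene was at least 2-fold higher, against 18.7% of all genes tested. In total 32 of the 40 were lower (37.4% of all genes) and 37 lay below the median difference of all genes, which was 0.26 (50% of all genes by definition). The median difference of the 40 genes was -0.95. Over all genes tested 1356 were at least 2-fold lower and 2753 at least 2-fold higher, and this split depends on the scaling: it was 2031 and 1700 after scaling the columns by their median ratio, which put the median of all genes at -0.04, and 1865 and 1763 after quantile normalization, which put it at 0.06. With these scalings 26 and 24 subunit genes were at least 2-fold lower and none higher. Uqcrc2, Uqcrq, Cyc1, Cox7a2l and Atp5c1, whose differences were between 0 and 0.13 as deposited, were lower at 5% O2 with either scaling, while Atp5a1, Atp5b and Cox4i2 stayed higher.

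The 3 complexes differed in degree. Summed over its genes, complex IV had 468 RPM at 5% O2 and 920 RPM at 20% O2, a ratio of 0.509 with a 95% interval from 0.502 to 0.515. Complex III summed to 483 and 624 RPM (ratio 0.774, interval 0.762 to 0.785), and ATP synthase to 1252 and 1536 RPM (ratio 0.815, interval 0.807 to 0.822). Complex IV also had the lowest median difference, -1.30 over 14 genes, with 8 of them at least 2-fold lower. The median of complex III was -0.79 over 9 genes, with 3 at least 2-fold lower, and that of ATP synthase was -0.96 over 17 genes, with 8 at least 2-fold lower. This order depends on the members used: among those with under 10% of their 50-base windows found elsewhere in the genome, the medians were -1.44 for ATP synthase, -1.04 for complex IV and -0.048 for complex III. The intervals are Clopper-Pearson limits from read numbers. They cover counting error only, set one pool of libraries against another and not condition against condition, and treat reads without molecular identifiers as independent. In such bulk values, fewer cells of a type and less RNA per cell cannot be told apart.

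The most abundant genes of ATP synthase, Atp5a1 and Atp5b, were higher at 5% O2 and weigh on its sum. Without the most abundant member of each, the ratio of the sums was 0.617 for ATP synthase, 0.605 for complex III and 0.436 for complex IV. With each level divided by the length of the transcript, the ratios were 0.510 for ATP synthase, 0.638 for complex III and 0.460 for complex IV.

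**Figure D1:**
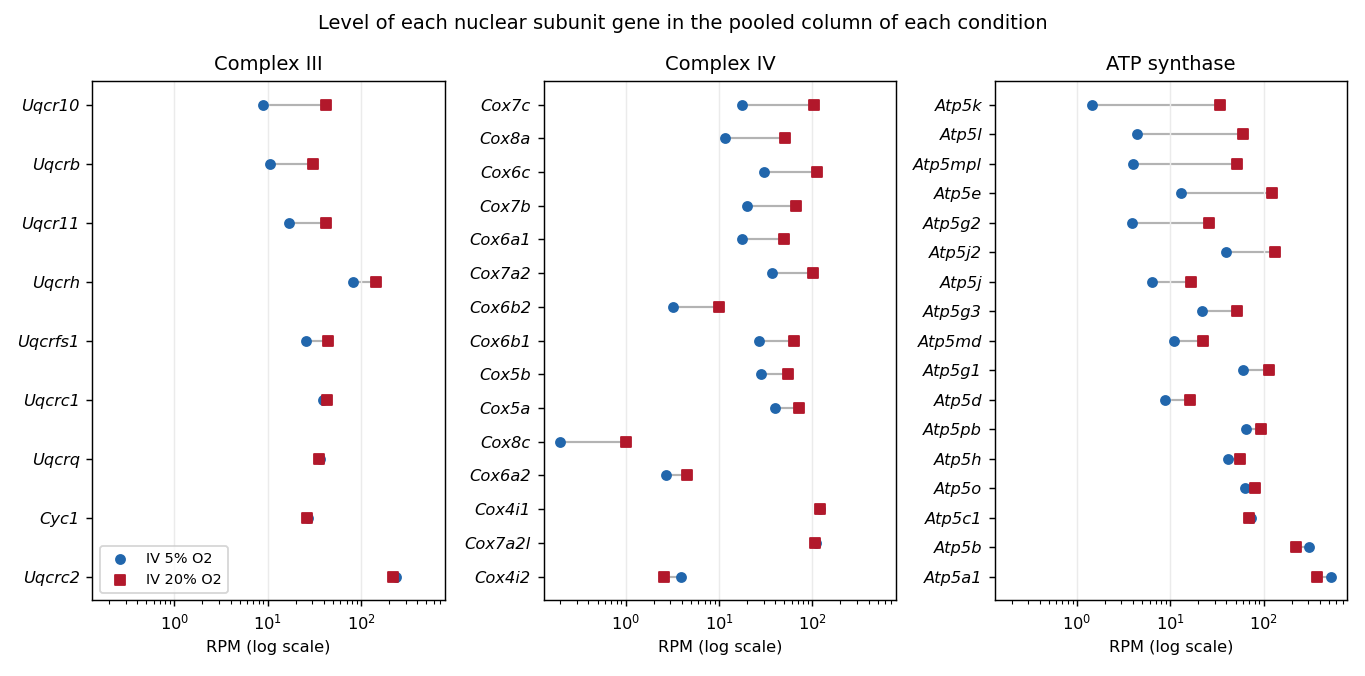
Each row is a nuclear subunit gene, ordered within its complex by the log2(RPM + 1) difference; circles give the IV 5% O2 column and squares the IV 20% O2 column in RPM on a log axis, with 1 pooled value each and no error bar. Atp5k, at the top of the ATP synthase panel, has the widest gap (1.46 against 34.4 RPM), and in Atp5a1, at its foot, the order of the symbols is turned (532 against 370 RPM).

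The depth was 132185259 reads at 5% O2 and 40875359 reads at 20% O2, so that 1 read is 0.00757 and 0.0245 RPM. All 10 oocyte markers were above 1 RPM in both columns, with a summed level of 9335 and 12760 RPM. Of these, 2 were at least 2-fold lower at 5% O2, Zp2 (1537 and 3807 RPM) and Zp3 (690.0 and 1501 RPM), both for proteins of the zona pellucida. A count of 2 of 10 is too small to set apart from the 9.22% of all genes tested. None was at least 2-fold higher, against 18.7% of all genes tested, and 4 had higher values at 5% O2, most of all Nobox (496 and 271 RPM). Markers of theca and stroma summed to 39.3 RPM at 5% O2 and 4.99 RPM at 20% O2, with 9 of 12 markers in the table and 3 of those at 0 reads at 20% O2. Granulosa markers summed to 42.9 and 29.8 RPM (7 of 10 in the table, 1 at 0 in each column), endothelial markers to 61.0 and 36.1 RPM (3 of 5), macrophage markers to 17.9 and 21.1 RPM (3 of 6) and the only erythroid marker with a row, Alas2, to 1.32 and 1.57 RPM (1 of 6). The defining markers Amh and Foxl2 of granulosa cells and Col1a1 of stroma have no row. The part of other cells in the subunit values was not tested.

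Within complex III, Cyc1 and the core subunits differed little, and the small subunits held the widest differences. Cyc1 encodes cytochrome c1, which hands electrons to cytochrome c, and had 27.1 RPM at 5% O2 and 26.1 RPM at 20% O2. Uqcrfs1 encodes the Rieske iron-sulfur protein, the other nuclear catalytic subunit, and had 25.5 and 44.6 RPM, a level 1.75-fold lower at 5% O2 (interval 1.65 to 1.86). The core proteins, which face the matrix, are encoded by Uqcrc1, with 39.3 and 43.3 RPM, and Uqcrc2, with 236 and 217 RPM. Neither core gene differed by more than 0.14 on the log2 scale (-0.14 for Uqcrc1 and 0.12 for Uqcrc2).

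Of the 5 genes for small subunits of complex III, 3 were at least 2-fold lower at 5% O2. Uqcr10 (chr11:4701973-4704342), for a subunit next to cytochrome c1, had 8.88 RPM at 5% O2 and 42.0 RPM at 20% O2. It was 4.73-fold lower (interval 4.39 to 5.10), the widest difference of the complex, and none of its sequence recurs in the genome. Uqcrb, for a ubiquinone-binding subunit, had 10.6 and 30.8 RPM and was 2.89-fold lower. Uqcr11 had 16.9 and 42.1 RPM and was 2.49-fold lower. Uqcrh encodes the hinge protein between cytochrome c1 and cytochrome c and had 81.8 and 143 RPM, a 1.74-fold lower level that stayed within the 2-fold limit. Uqcrq was the exception among the small subunits, with 36.1 and 35.1 RPM. Its coding sequence is as short as those of the others, at 246 bases.

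In complex IV, all 10 genes for the nuclear subunits shared by most tissues had lower values at 5% O2, and 7 were at least 2-fold lower. Their summed level was 348 RPM at 5% O2 and 794 RPM at 20% O2. Cox7c (chr13:86044816-86046904) had 17.7 and 104.0 RPM and was 5.87-fold lower (interval 5.58 to 6.17), and Cox8a (chr19:7215153-7217616) had 11.6 and 51.1 RPM and was 4.41-fold lower (interval 4.13 to 4.72). Both encode small subunits that cross the inner membrane beside the catalytic core. Cox6c (chr15:35925886-35938246) had 30.2 and 111 RPM and was 3.66-fold lower. Cox7b had 19.7 and 66.8 RPM (3.39-fold lower), and Cox7a2, for a subunit at the dimer face, had 37.2 and 102 RPM (2.73-fold lower).

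The remaining shared subunits of complex IV formed a series from clearly lower to equal. Cox6a1 had 17.6 RPM at 5% O2 and 49.1 RPM at 20% O2 (2.80-fold lower), and Cox6b1, whose product faces the intermembrane space, had 26.6 and 63.7 RPM (2.40-fold lower). Cox5b, for the zinc-binding subunit, had 27.9 and 54.7 RPM (1.96-fold lower), and Cox5a had 39.6 and 71.8 RPM (1.81-fold lower). Cox4i1 encodes the largest nuclear subunit, through which ATP inhibits the enzyme, and had 119.6 and 121 RPM. Its RPM ratio of 20% O2 over 5% O2 was 1.01 (interval 0.976 to 1.04). Cox4i1 and Cox7c thus stood at opposite ends although their products enter the same complex.

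Complex IV has alternative subunits that replace the common ones in particular tissues, and 4 such genes were in the table. Cox4i2, the form known from lung and from cells at low oxygen, had 3.93 RPM at 5% O2 and 2.59 RPM at 20% O2 (520 and 106 reads), a 1.52-fold higher level (interval 1.23 to 1.89). Its share of the reads of Cox4i1 and Cox4i2 was 3.18% at 5% O2 (interval 2.92 to 3.46) and 2.11% at 20% O2 (interval 1.73 to 2.54), so Cox4i1 held almost all reads in both columns. Cox6a2, the heart and muscle form, held 13.3% of the Cox6a reads (interval 12.0 to 14.6) and 8.40% (interval 7.27 to 9.64), while its own level was lower, with 2.69 and 4.50 RPM. Cox6a1, the other member of the pair, was lower by a wider margin.

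The testis forms Cox6b2 and Cox8c were also read. Cox6b2 had 3.19 RPM at 5% O2 and 9.88 RPM at 20% O2, was 3.10-fold lower (interval 2.69 to 3.56), and held 10.7% and 13.4% of the Cox6b reads. Cox8c had 26 and 41 reads, or 0.197 and 1.00 RPM, too few for the limit of 1 RPM on the mean, and held 1.67% and 1.92% of the Cox8 reads. The intervals of the Cox8c share overlapped (1.09 to 2.44 and 1.38 to 2.60). Cox7a1, Cox7b2, Cox8b and Cox6c2 have no row and were not analysed here.

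Cox7a2l, which encodes a protein that links complexes III and IV into supercomplexes, had 110.3 RPM at 5% O2 and 108 RPM at 20% O2. Cox7a2, its relative in the complex itself, was lower at 5% O2, and the share of Cox7a2l in the reads of the pair was therefore 74.8% (interval 74.2 to 75.4) against 51.5% (interval 50.5 to 52.6). Of the 100-base windows of Cox7a2l, 40.8% recur elsewhere in the genome, and none of Cox7a2.

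ATP synthase held the widest differences, and its genes Atp5a1 and Atp5b were among those with higher values at 5% O2. The catalytic head, F1, is a ring of alpha and beta subunits around a central stalk. Atp5a1, for the alpha subunit, had 532 RPM at 5% O2 and 370 RPM at 20% O2, and Atp5b, for the catalytic beta subunit, had 304 and 221 RPM. These were 1.44-fold and 1.38-fold higher at 5% O2, with log2 differences of 0.52 and 0.46, against a median of 0.26 over all genes. Atp5c1, for the gamma subunit that turns inside the ring, had 72.7 and 69.2 RPM.

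The small subunits of the central stalk did not go with the rest of F1. Atp5d, for the delta subunit, had 8.84 RPM at 5% O2 and 16.3 RPM at 20% O2 and was 1.84-fold lower. Atp5e, for the epsilon subunit, had 13.1 and 123 RPM (1728 and 5021 reads) and was 9.40-fold lower (interval 8.89 to 9.93). Per kb of transcript, Atp5e had the highest level of the 17 ATP synthase genes at 20% O2, at 292 RPM per kb, and the median level at 5% O2, at 31.1 RPM per kb. The highest level at 5% O2 was that of Atp5a1, at 215 RPM per kb.

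All 4 genes of the peripheral stalk, which holds the head still against rotation, were lower at 5% O2, but only Atp5j by 2-fold or more. Atp5pb had 64.3 RPM at 5% O2 and 92.9 RPM at 20% O2 (1.44-fold lower), and Atp5h had 41.1 and 55.3 RPM (1.34-fold lower). Atp5o, for the subunit that binds the top of the head, had 62.8 and 81.2 RPM (1.29-fold lower). A second row of the same name, whose exons overlap it, had 34.6 and 31.5 RPM, so reads may have been split between the 2 rows. Atp5j, for coupling factor 6, had 6.29 and 16.5 RPM and was 2.62-fold lower. Over 397 exonic bases Atp5j lies opposite to exons of Gabpa, and although the libraries were strand-specific, whether the counting used strand is not given in the sources used here. Exons of Atp5a1, Atp5d, Atp5l, Atp5md, Atp5o, Atp5pb, Cox4i1, Cox5a, Cox6a2, Cox6c, Uqcrb and Uqcrc2 also lie opposite to those of another gene, and reads of the 2 strands could not be told apart if it did not.

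The genes of the c ring, whose sequences are shown above, were all lower at 5% O2. Atp5g1 had 59.5 RPM at 5% O2 and 114 RPM at 20% O2 (1.91-fold lower), and Atp5g3 had 22.0 and 51.7 RPM (2.36-fold lower). Atp5g2 had 3.90 and 26.0 RPM and was 6.67-fold lower (interval 6.00 to 7.43). Together they summed to 85.3 and 191 RPM. The share of Atp5g2 in their reads was 4.57% (interval 4.19 to 4.97) at 5% O2 and 13.6% (interval 12.8 to 14.4) at 20% O2, while that of Atp5g1 was 69.7% and 59.4%, and that of Atp5g3 was 25.7% and 27.0%. The Atp5g2 values are uncertain, because 100% of the windows of its transcript recur elsewhere in the genome, whereas none of Atp5g3 do. The Atp5g2 transcript used, of 441 bases, holds coding sequence only, so its untranslated sequence was not checked.

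The widest group difference was that of the small membrane subunits of ATP synthase, which bind around the ring and hold pairs of enzymes together at the edges of the cristae. Their summed level was 60.7 RPM at 5% O2 and 299.5 RPM at 20% O2 over 5 genes, of which 4 were at least 2-fold lower, with a median difference of -3.42. Atp5k, for subunit e at the face between the paired enzymes, had 1.46 and 34.4 RPM (193 and 1408 reads) and was 23.6-fold lower at 5% O2 (interval 20.3 to 27.6). Atp5l, for its partner subunit g, had 4.39 and 59.5 RPM and was 13.6-fold lower (interval 12.4 to 14.9). Of the 100-base windows of Atp5l, 77.8% recur elsewhere in the genome, and none of Atp5k.

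The other membrane subunits were lower as well. Atp5mpl, for the 6.8 kDa proteolipid, had 529 reads at 5% O2 and 2141 reads at 20% O2, the latter 52.4 RPM, and was 13.1-fold lower in RPM (interval 11.9 to 14.4). Atp5j2, for subunit f, had 39.9 and 131 RPM and was 3.28-fold lower (interval 3.16 to 3.41). Atp5md, for a small subunit also found at the dimer face, had 11.0 and 22.3 RPM, a 2.03-fold lower RPM whose difference on log2(RPM + 1), -0.96, stayed within the limit. Among ATP synthase genes the spread between the highest and the lowest level per kb was 54.7-fold at 5% O2 and 16.7-fold at 20% O2.

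**Figure D2:**
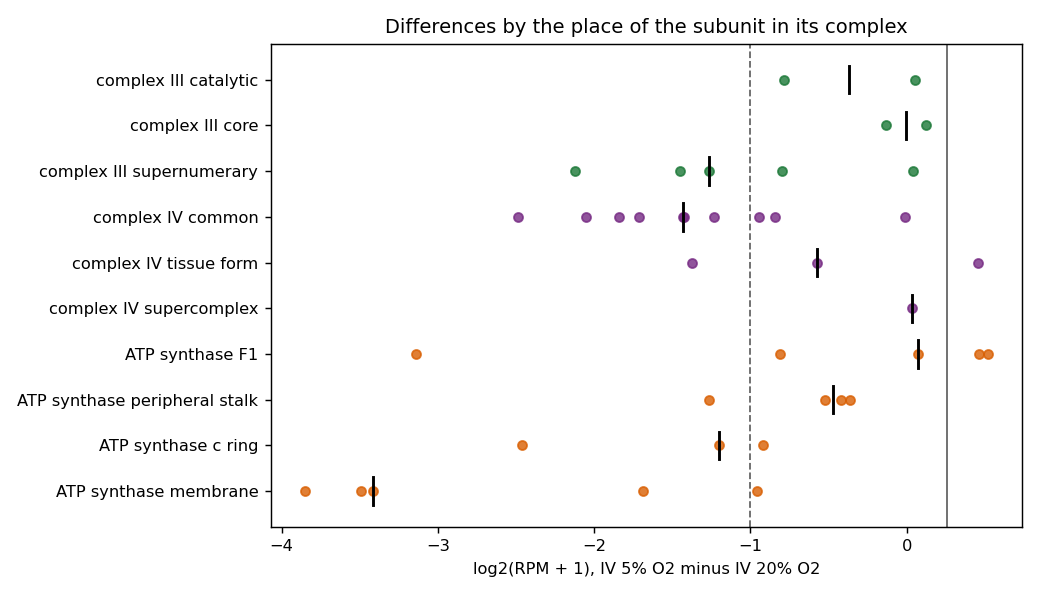
Points are the 40 subunit genes tested, placed by the log2(RPM + 1) difference (IV 5% O2 minus IV 20% O2) on the x axis and by the place of the subunit in its complex on the y axis; black bars are medians of a row, the solid line is the median of all genes tested (0.26) and the dashed line is 2-fold lower. The membrane subunits of ATP synthase lie farthest to the left, with a median of -3.42, and the F1 subunits spread from -3.14 to 0.52.

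The differences of the subunit genes went with the length of their products. Over the 40 genes, Spearman's rho between the difference and the coding length was 0.76, and that with the length of the principal transcript was 0.69. Within the complexes, rho with coding length was 0.65 in complex III (n = 9), 0.86 in complex IV (n = 14) and 0.86 in ATP synthase (n = 17). The corresponding rho was 0.11 for the GC content of the transcript and 0.36 for the mean RPM. Genes of a column share their libraries and depth, and these values are descriptions across genes. Over 14558 genes tested that had an annotated transcript, rho with coding length was 0.07.

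**Figure D3:**
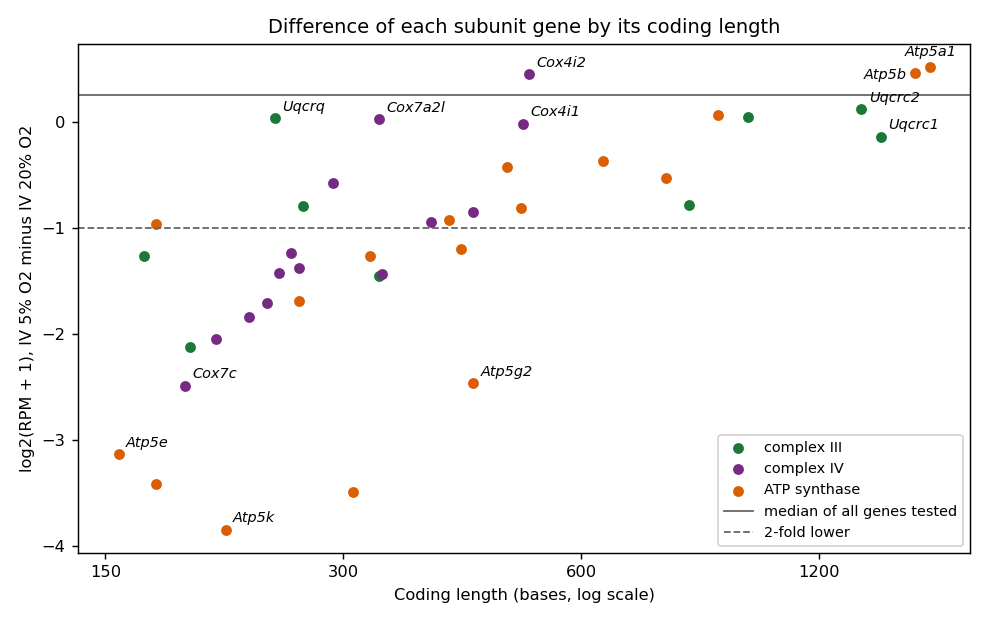
Each point is a subunit gene, with its coding length in bases on a log x axis and its log2(RPM + 1) difference (IV 5% O2 minus IV 20% O2) on the y axis; colours give the complex, the solid line the median of all genes tested (0.26) and the dashed line 2-fold lower. Atp5a1 and Atp5b, the longest, lie above the solid line, whereas Uqcrq and Cox7a2l are short genes near 0.

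Short genes outside the complexes also held larger shares of lower genes than the table as a whole. Among genes with a principal transcript under 500 bases, 7 of 9 subunit genes were at least 2-fold lower, with a median difference of -2.12, against 31.1% of 289 other genes (histones left out), with a median of -0.17. From 500 to under 750 bases, the count was 9 of 16 (median -1.21) against 20.3% of 605 other genes, and from 750 to under 1000 bases it was 2 of 5 against 14.0% of 692. From 1000 to under 2000 bases, 1 of 9 subunit genes was at least 2-fold lower, against 9.35% of 3410. The exceptions below 500 bases were Uqcrq and Atp5md, and the exception from 1000 bases upwards was Cox7b, with a transcript of 1001 bases and a coding length of 240 bases. Atp5g2 fell in the class under 500 bases by a transcript without untranslated sequence. Whether fragment length or RNA recovery differed between the libraries was not tested.

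**Figure D4:**
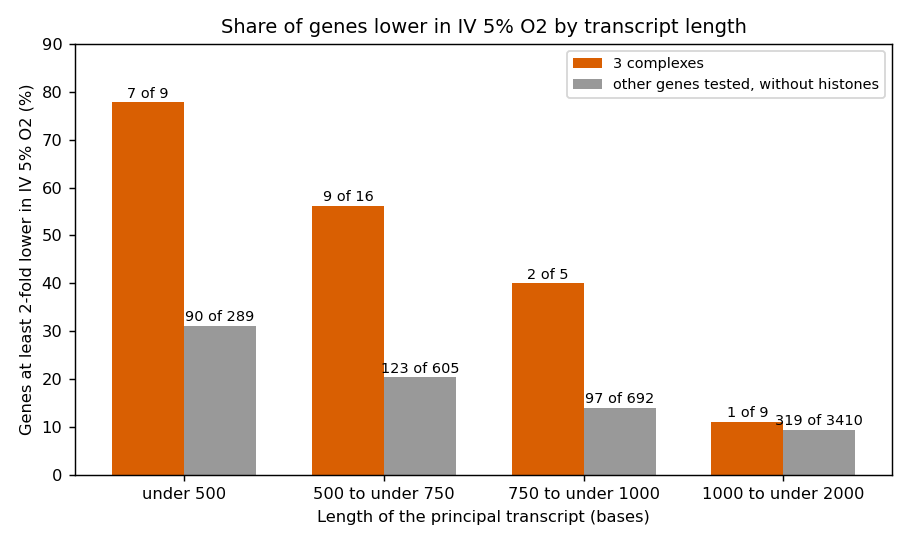
Bars give the share of genes at least 2-fold lower in IV 5% O2 in percent, by class of principal transcript length in bases, for the 3 complexes and for other genes tested without histones; the counts stand above the bars. The bars of the 3 complexes reach 77.8% under 500 bases and 11.1% from 1000 to under 2000 bases, against 31.1% and 9.35% for other genes.

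Many subunit genes have processed copies in the genome, and reads from such sequence cannot be placed with certainty. For 25 of the 41 genes no 100-base window of the transcript recurred elsewhere in GRCm38, and 10 of the 24 tested among them were at least 2-fold lower, with a median of -0.80. Of the 16 genes with some recurring window, 9 were at least 2-fold lower, with a median of -1.27. The recurring share of 100-base windows was 66.7% in Cox7c, 66.0% in Atp5g1, 59.3% in Atp5md, 34.0% in Atp5h, 22.7% in Uqcrb, 22.1% in Cox5b and at most 10.9% in the members not named for it, and their values are uncertain to that extent. Atp5k, Atp5mpl, Atp5e, Atp5j2, Atp5g3, Uqcr10, Cox7b, Cox7a2, Cox6b1 and Cox6b2 were the 10 lower genes without a recurring window. Reads assigned to the Cox5b pseudogene itself, a row the member rule leaves out, numbered 0 at 5% O2 and 188 at 20% O2. The interval of its RPM ratio, 5% O2 over 20% O2, ended at 0.00613, so the 2 columns differed in the reads placed on this copy.

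Some promoters of these genes hold letters that are read by known regulators of mitochondrial genes. RefSeq promoter sequences of GRCm38.p6, from 250 bases before to 50 bases after the start, matched 30 of the 41 genes by symbol. The 27025 genes set against them are all those with such a sequence, whether or not they were read in these oocytes. The palindrome GCGCATGCGC, the core read by NRF1, was found in 4 of the 30 (Atp5g2, Atp5k, Cox6a1 and Uqcrc1), or 13.3%, against 1.07% of 27025 genes. CCGGAAG, read by ETS factors such as GABPA, was found on either strand in 11 of 30, or 36.7%, against 9.93% of genes. Of the 16 matched genes at least 2-fold lower at 5% O2, 3 held the first and 8 the second, and of the other 14 genes 1 and 3 did.

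The other motifs searched on both strands were AAGATGG (YY1), found in 13.3% of the 30 against 7.28% of all genes, and ACGTG and GCGTG, the cores read by hypoxia-inducible factors, found in 26.7% against 21.8% and in 56.7% against 35.2%. GGGCGG (Sp1) was found in 36.7% against 38.2%, CCAAT in 53.3% against 41.1% and TATAAA in 6.67% against 15.7%. A match describes these letters in this window and is no evidence of binding. None of these motifs contains another.

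Atp5k and Cox6a1 were the promoters with both the NRF1 and the ETS letters. Shown for each are the 250 bases before the start, 5′ to 3′ in the direction of the gene, with matches in capitals. The start is that of RefSeq and lies inside the gene as placed by GENCODE. Most of the NRF1 letters of Atp5k and the ETS letters of Cox6a1 shown here therefore fall within the GENCODE gene. That of Atp5k is chr5:108434400-108434649 on the minus strand, with the NRF1 letters from 50 to 41 bases before the start and the ETS letters only after it. That of Cox6a1 is chr5:115348959-115349208 on the minus strand, with the NRF1 letters from 162 to 153 bases and the ETS letters from 16 to 10 bases before the start, on the opposite strand.
Atp5k: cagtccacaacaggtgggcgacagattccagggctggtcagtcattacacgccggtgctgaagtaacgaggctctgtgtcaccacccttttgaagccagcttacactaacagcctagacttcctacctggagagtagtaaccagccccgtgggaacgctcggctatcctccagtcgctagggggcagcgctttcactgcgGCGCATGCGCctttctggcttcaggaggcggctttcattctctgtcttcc
Cox6a1: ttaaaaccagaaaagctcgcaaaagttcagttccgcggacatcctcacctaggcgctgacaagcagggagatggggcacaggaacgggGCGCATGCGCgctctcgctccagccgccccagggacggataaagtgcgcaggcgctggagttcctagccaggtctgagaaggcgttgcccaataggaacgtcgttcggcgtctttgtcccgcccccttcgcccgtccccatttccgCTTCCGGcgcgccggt

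The mitochondrial genome encodes the innermost subunits of the same complexes, and in complex III its gene and the nuclear sum differed in opposite directions. The gene mt-Cytb, for cytochrome b of complex III, had 155 RPM at 5% O2 and 40.3 RPM at 20% O2 and was 3.83-fold higher (interval 3.65 to 4.03), while the nuclear sum of that complex was lower. The ratio of mitochondrial to nuclear RPM in complex III was 0.321 at 5% O2 and 0.0647 at 20% O2. No window of mt-Cytb recurs in the nuclear chromosomes.

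In complex IV, genes of both genomes were lower at 5% O2. The catalytic subunits mt-Co1, mt-Co2 and mt-Co3 had 262, 30.0 and 79.6 RPM at 5% O2 and 406, 74.1 and 151 RPM at 20% O2, and the ratio of mitochondrial to nuclear RPM was 0.794 and 0.686. For ATP synthase, mt-Atp6 had 55.3 and 64.2 RPM and mt-Atp8 had 12.1 and 2.40 RPM, and the ratio was 0.0539 and 0.0433. The values of mt-Co2, mt-Co3, mt-Atp6 and mt-Atp8 are uncertain, because 100% of their windows have a copy on nuclear chromosomes, as do 51.3% of those of mt-Co1. The 7 mitochondrial genes of complex I summed to 649 and 168 RPM, a ratio of 3.87. Of these, 5 were at least 2-fold higher at 5% O2, against 18.7% of all genes tested, most of all mt-Nd6, with 66.8 and 4.65 RPM. The others were mt-Nd3, nearly equal with 11.8 and 11.5 RPM, and mt-Nd4l, lower at 5% O2 with 0.507 and 1.64 RPM. Copies on nuclear chromosomes cover 100% of the 50-base windows of mt-Nd4l, 96.7% of those of mt-Nd3, 62.4% of those of mt-Nd4 and none of those of mt-Nd1 and mt-Nd6.

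**Figure D5:**
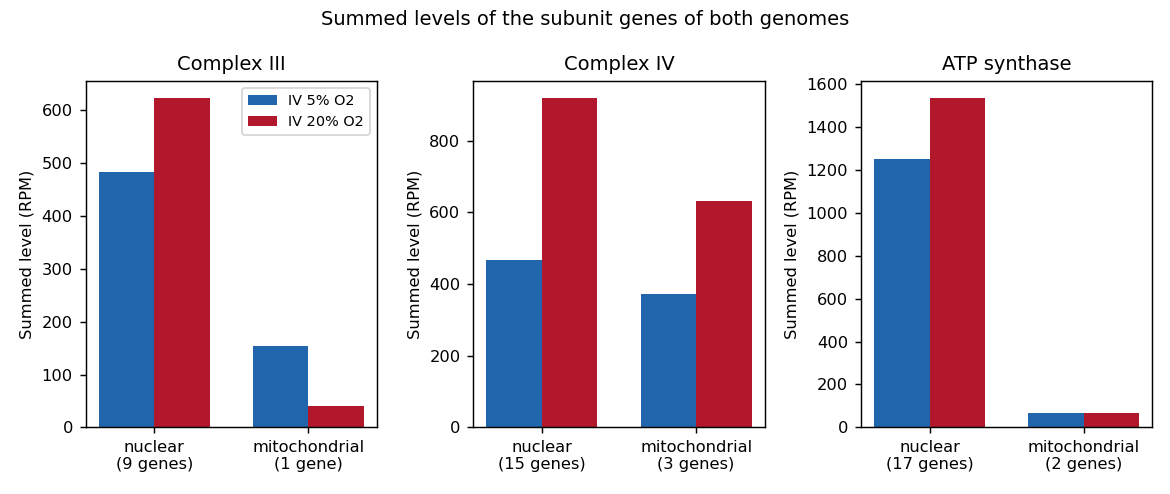
Bars give the RPM summed over the nuclear and over the mitochondrially encoded subunit genes of each complex in the pooled columns IV 5% O2 and IV 20% O2, each panel with its own axis from 0 and no error bar. In complex III the nuclear sum is lower in IV 5% O2 (483 against 624 RPM) and the mitochondrial gene higher (155 against 40.3 RPM), and in complex IV both are lower.

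Cytochrome c carries electrons between complexes III and IV, and its somatic gene Cycs had 15.3 RPM at 5% O2 and 54.4 RPM at 20% O2, 3.55-fold lower (interval 3.34 to 3.78). Cyct, the testis form, had 1.89 and 1.17 RPM and was 1.61-fold higher (interval 1.18 to 2.24), and Hccs, for the enzyme that attaches heme to cytochrome c, had 34.9 and 38.7 RPM. Ndufa4, for a subunit associated with complex IV, had 30.1 and 65.0 RPM and was 2.16-fold lower. Ndufa4l2, its relative known as a target of hypoxia-inducible factor, had 1.41 and 0.367 RPM from 186 and 15 reads, a 3.83-fold higher level (interval 2.27 to 6.99), but its mean was under 1 RPM. Atpif1, the inhibitor of ATP synthase, had 10.4 and 32.6 RPM and was 3.14-fold lower (interval 2.91 to 3.39).

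The median differences of the assembly factors lay nearer 0 than those of the subunits, but their transcripts were longer. The median transcript length of the factors was 2060.5 bases for complex III, 1333 for complex IV and 1636 for ATP synthase. That of the subunit genes was 547, 652 and 714 bases, in the same order. The part of length in this contrast was not tested. Of 22 genes for complex IV assembly factors, 5 were at least 2-fold lower at 5% O2 and 1 was at least 2-fold higher, against 9.22% and 18.7% of all genes tested, with a median difference of -0.41. Pet100, which brings small subunits to the complex, had 0.235 and 8.56 RPM from 31 and 350 reads and was 36.5-fold lower (interval 25.3 to 54.6). Pet117, which links heme synthesis to assembly, had 9.45 and 1.30 RPM and was 7.29-fold higher (interval 5.54 to 9.78). Cox17, the copper chaperone of the complex, had 2.92 and 22.4 RPM and was 7.67-fold lower, and Coa6, Cox11 and Cox14 were the others.

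For complex III, 1 of 6 assembly factor genes was at least 2-fold lower, a count too small to set apart from the 9.22% of all genes, with a median of -0.01. This was Uqcc2, a partner in the synthesis of cytochrome b, with 8.80 RPM at 5% O2 and 40.0 RPM at 20% O2 (4.54-fold lower, interval 4.21 to 4.90), and the largest positive difference was that of Uqcc1, its partner, with 52.7 and 32.2 RPM. None of 4 assembly factor genes of ATP synthase differed by 2-fold on log2(RPM + 1), with Fmc1 lowest (3.63 and 7.44 RPM) and Atpaf2 highest (12.7 and 8.42 RPM). The names Dmac2 and Dmac2l, once counted with ATP synthase, had 38.6 and 20.1 RPM and 3.35 and 4.28 RPM. None of the 4 genes of complex II, the respiratory complex without proton transfer, differed by 2-fold, and their median was 0.02. Their median transcript length was 2065.5 bases.

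Compared with other gene families, the 3 complexes had a median difference between those of the mitochondrial and the cytosolic ribosomal proteins. The nuclear genes of complex I had 13 of 36 members at least 2-fold lower at 5% O2 and 1 higher, against 9.22% and 18.7% of all genes tested, with a median of -0.63 and a ratio of sums of 0.663. Mitochondrial ribosomal proteins had 15 of 78 lower and 5 higher, with a median of -0.21 but a ratio of sums of 1.03, above 1. Cytosolic ribosomal proteins had 55 of 85 lower and none higher, with a median of -1.54 and a ratio of sums of 0.440. Coding length went with the difference in each family, with a rho of 0.68, 0.67 and 0.61 for these 3 families against 0.76 for the subunit genes.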

How the data were processed

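Paired-end reads of 100 bases were mapped by the authors to mm10 (GRCm38) with TopHat (TopHat2 2.0.9 in the submitters' processing notes) and summed over exons in SeqMonk. The log2 values that the authors deposited form 1 pooled column per condition. The deposited log2 values are described as length-corrected, but undoing the log2 gave whole multiples of 1 read for 99.98% of the values in both columns (tolerance 0.1 read), so they were read as log2 RPM. Genes without reads, listed at 0.9 of a read, were set to 0. How the libraries were combined is not given in the sources used here, and 1 value column that belongs to no mapped sample was not used. The RRBS and PBAT libraries were not analysed here.

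The IV 5% O2 and IV 20% O2 columns were compared over 16572 gene names, with the row of the highest mean where a name repeats, on log2(RPM + 1). Genes averaging under 1 RPM were left out. The limma test planned for values per library could not be run. Depths of 132185259 and 40875359 reads put the floor of 3 reads at 0.0227 and 0.0734 RPM, and intervals are 95% Clopper-Pearson. Principal transcripts, coding and transcript lengths came from GENCODE for GRCm38. Where several transcripts of a gene ranked alike in the annotation, the shortest was taken. Of 16591 rows, 16414 had the coordinates of an annotated gene. Windows of 50 and 100 bases, every 10 bases, were called recurring if found elsewhere in GRCm38. On simulated reads for 14692 genes in this comparison, 100% of 200 changed genes (log2 changes of 2 or 3) and 0% of 14492 unchanged genes passed 2-fold, and 95.45% of intervals held the true ratio. The simulated reads held counting error only, with no variation between libraries, and the planted changes were wider than the limit. They check the calculation and give no error rate for the real columns.

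The members and gene lists were chosen with earlier results of these data known. Named were all members, the mitochondrially encoded partners, and the largest difference in each direction of each assembly list; other genes of the related lists were named after their values were seen. Alternatives were pseudocounts of 0.1 and 5 RPM, quantile normalization, a limit of 5 RPM or none, median-ratio scaling, summed rows, members with under 10% recurring windows, levels per kb and sums without the most abundant member. Biopython 1.88, matplotlib 3.10.9, scipy 1.17.1, pandas 2.3.3 and numpy 2.4.6 were used in Python 3.11.15.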

Additional observations from a re-analysis of the deposited data

How the results depend on the processing

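No paired analysis was possible because each condition has 1 pooled column, and for the same reason the replicate block and the omission of single replicates were not run. The count of subunit genes at least 2-fold lower in IV 5% O2 was 19 of 40 as reported (9.22% of all genes tested) and 17 to 26 under other pseudocounts, filters and scalings. Among members with under 10% recurring windows it was 10 of the 22 tested. No alternative gave a gene at least 2-fold higher. The median differences of complex III, complex IV and ATP synthase were -1.10, -1.59 and -1.26 after median-ratio scaling, -0.95, -1.49 and -1.12 after quantile normalization, and -0.048, -1.04 and -1.44 among members with under 10% recurring windows, where fewer genes remain. The complex IV median was -0.99 with a pseudocount of 5 RPM and -1.40 with genes under 5 RPM left out. The ratios of the summed levels, in the same order, were 0.620, 0.408 and 0.653 after median-ratio scaling, 0.666, 0.447 and 0.712 after quantile normalization, 0.638, 0.460 and 0.510 per kb, and 0.605, 0.436 and 0.617 without the most abundant member.

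Differences that turned below 0 were those of Atp5c1 (-0.24 and -0.13), Uqcrc2 (-0.20 and -0.13), Uqcrq (-0.27 and -0.12), Cyc1 (-0.26 and -0.10) and Cox7a2l (-0.29 and -0.15) after median-ratio scaling and quantile normalization, respectively; these put the all-gene median, 0.26 as deposited, at -0.04 and 0.06. Over all genes tested, a pseudocount of 5 RPM left 706 lower and 1202 higher, and a limit of 5 RPM left 917 lower and 1691 higher. Of the single subunit values under all alternatives, 195 stayed within counting error of the reported value or its interval. Another 95 moved without a change of sign, and 10 changed sign. The 195 are no measure of robustness, because several settings could not change a value. Removing the filter, the limit of 5 RPM and the restriction to members with under 10% recurring windows only choose which genes count. Summing rows can change only a gene whose name repeats, such as Atp5o.

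Without values per library the spread between libraries is unknown, and oxygen, days in culture and oocyte size cannot be told apart. The part of copies elsewhere in the genome and of transcript length in library preparation was not tested.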
